A study of Mus musculus with 2 samples.

Results

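Wide accessible domains were unbroken stretches of open chromatin, at least 800 bases long, that were present in both libraries of mouse left cerebral cortex. They were selected on a measured value, their width. Overlapping or touching peaks of the longer of 2 deposited peak lists were merged within each library, and a merged interval was kept where it spanned at least 800 bases and overlapped such an interval of the other library by at least 1 base. Of all merged intervals, this left 113 intervals of 129963 in library 1 and 112 of 136451 in library 2, or 0.0869% and 0.0821% of them. The intervals formed 112 loci, of which 111 paired 1 interval with 1 interval, and at Pcdh17 a single interval of library 2 overlapped 2 of library 1. Because width chose the members, widths below are a description, and no test was made on any value that goes with width.

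The assay was DNase-seq, in which DNase I cuts chromatin where nucleosomes leave the DNA bare and the cut ends are sequenced. Both libraries came from female adult mice of strain B6CASTF1/J at 18 to 20 months, a first-generation cross of C57BL/6J and CAST, with no treatment, mutation or control group named. The libraries carried biological replicate numbers 1 and 2 and separate tissue samples under the same donor identifier, and the labels do not say whether separate animals were used. The spread between the libraries may therefore be technical, and with 1 group there is no comparison of conditions.

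As background, most accessible sites are about as long as the gap left by displacing a nucleosome or so, and a longer stretch means that several neighbouring nucleosome positions were open at least in part of the cells. Many mammalian promoters lie in CpG islands, which are rich in G and C, keep their CpG dinucleotides because they are unmethylated, and often stay free of nucleosomes over a broad region. Within accessible DNA a bound factor shields a few bases from DNase I, which is seen as a footprint.

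Marker genes were checked against the labelled tissue. An interval covered a start in both libraries at 13 of 16 pan-neuronal genes, 9 of 12 astrocyte markers, 8 of 12 excitatory neuron markers, 7 of 14 oligodendrocyte lineage markers and 6 of 15 inhibitory neuron markers. Microglia markers had such an interval at 3 of 12 genes and endothelial and mural markers at 3 of 14. Markers of other tissues had it at 0 of 12 genes for liver, 1 of 12 for muscle and heart and 1 of 12 for blood. Over all protein-coding genes the count was 11507 of 21938. The share for oligodendrocyte markers was close to that, with excitatory markers somewhat above it and inhibitory markers somewhat below. Shares for microglia, for endothelial and mural cells and for the other tissues were far below it. Read depth is not given in the files, and the longer list held 132054 peaks in library 1 and 139799 in library 2. Cortex is a mixture of cell types, so a weaker signal in every cell and a site open in fewer cells cannot be told apart.

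The following 150-base stretches show what the DNA of these domains looks like. Each is the stretch of the domain, outside any annotated exon, with the most bases under footprints of both libraries, read from the mm10 genome on the plus strand. Capitals mark bases that lay under a footprint in library 1 and in library 2. The first 5 come from strong, wide or footprint-dense domains at CpG-rich promoters, and the last 2 from the domains at starts with little CpG.
Cacna2d1, widest domain by mean width, chr5:15934170-15934319: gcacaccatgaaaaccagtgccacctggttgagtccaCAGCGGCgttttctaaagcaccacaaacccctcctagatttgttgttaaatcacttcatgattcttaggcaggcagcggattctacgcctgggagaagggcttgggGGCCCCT
Mb21d2, wide in both libraries, chr16:28928721-28928870: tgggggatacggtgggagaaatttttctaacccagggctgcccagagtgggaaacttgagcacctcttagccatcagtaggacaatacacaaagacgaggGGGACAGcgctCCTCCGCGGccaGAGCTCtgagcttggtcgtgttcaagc
Grm7, many footprints, chr6:110645415-110645564: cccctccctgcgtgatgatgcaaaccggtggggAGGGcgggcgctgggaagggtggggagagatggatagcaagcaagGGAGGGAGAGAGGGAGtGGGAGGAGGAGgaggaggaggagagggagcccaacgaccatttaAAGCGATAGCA
Fam20c, densest footprints by mean, chr5:138754361-138754510: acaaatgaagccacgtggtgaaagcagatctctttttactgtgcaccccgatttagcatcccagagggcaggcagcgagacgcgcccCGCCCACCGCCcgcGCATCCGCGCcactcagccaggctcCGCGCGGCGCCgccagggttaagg
Flrt2, strong promoter domain, chr12:95695042-95695191: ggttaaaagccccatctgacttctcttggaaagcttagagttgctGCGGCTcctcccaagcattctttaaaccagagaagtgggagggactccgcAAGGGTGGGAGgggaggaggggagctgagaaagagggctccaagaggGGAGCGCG
Lncppara, CpG-poor domain, chr15:85654197-85654346: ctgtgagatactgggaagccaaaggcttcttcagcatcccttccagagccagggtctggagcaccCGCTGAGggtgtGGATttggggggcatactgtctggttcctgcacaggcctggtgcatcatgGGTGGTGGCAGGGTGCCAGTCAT
Cpa6, lowest CpG content, chr1:10719946-10720095: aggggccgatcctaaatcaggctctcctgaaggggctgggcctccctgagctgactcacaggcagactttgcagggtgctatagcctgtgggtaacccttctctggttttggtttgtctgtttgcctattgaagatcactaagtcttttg
The stretch at Grm7 had 42 bases under footprints of both libraries, of which most fell in runs of G and A, and that at Fam20c had 32 and 16 CpG in 150 bases. The Cacna2d1 stretch, from the widest domain by mean width, had 14 such bases, and the stretch at Cpa6 had 0 and a single CpG. For Cpa6, lowest CpG content means the CpG observed over expected of its whole domain, 0.122, and not the count in the stretch. With 0 such bases, the place of that stretch was not set by footprints. G and C made up 65.3% of the Fam20c stretch and 52.0% of the Cpa6 stretch.

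The domains were typically about 1 kb long. The median width was 960 bases in library 1 and 1010 in library 2, against 200 bases in each library for the other shared intervals. The widest were 1780 bases in library 1, at Cacna2d1, and 1880 bases in library 2, at Tmem178b. Width was 1000 bases or more in both libraries at 34 loci and 1500 or more in both at 3. The libraries ranked the domains by width only loosely, with a Spearman rho of 0.35 over 112 loci, given as a description since both widths had to pass the same limit. Library 1 was wider at 45 loci, library 2 at 59, and 8 were equal. A domain held 2 or more peaks in both libraries at 106 loci. That count does not show whether the width came from joined peaks or from 1 long peak. In the longer list 138 single peaks of library 1 and 411 of library 2 spanned at least 800 bases by themselves. Wide merged intervals, members or not, numbered 267 in library 1 and 682 in library 2.

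The limit of 800 bases cut through a continuous range. Just inside it were the domain at Gpr176, an orphan G protein-coupled receptor, with 820 bases in library 1 and 800 in library 2, the domain at 4931440P22Rik with 1120 and 800 in the same order, and that at Rap1gds1 with 800 and 820. Just outside it were the intervals at Zfp648, with 799 bases in library 1 and 880 in library 2, at Tmeff2, with 780 in each, and at Lpgat1, with 780 in each. Within 60 bases above the limit lay 36 loci, and within 60 bases below it 37 pairs. For the loci just inside, the strongest signal had medians of 0.919 in library 1 and 1.19 in library 2. For the pairs just outside they were 0.892 in library 1 and 1.09 in library 2. Intervals that reached 800 bases in 1 library alone were more numerous than the members, with 154 in library 1 and 570 in library 2. Where they overlapped an interval of the other library, that partner had a median width of 520 bases for those of library 1 and 398 for those of library 2.

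**Figure D1:**
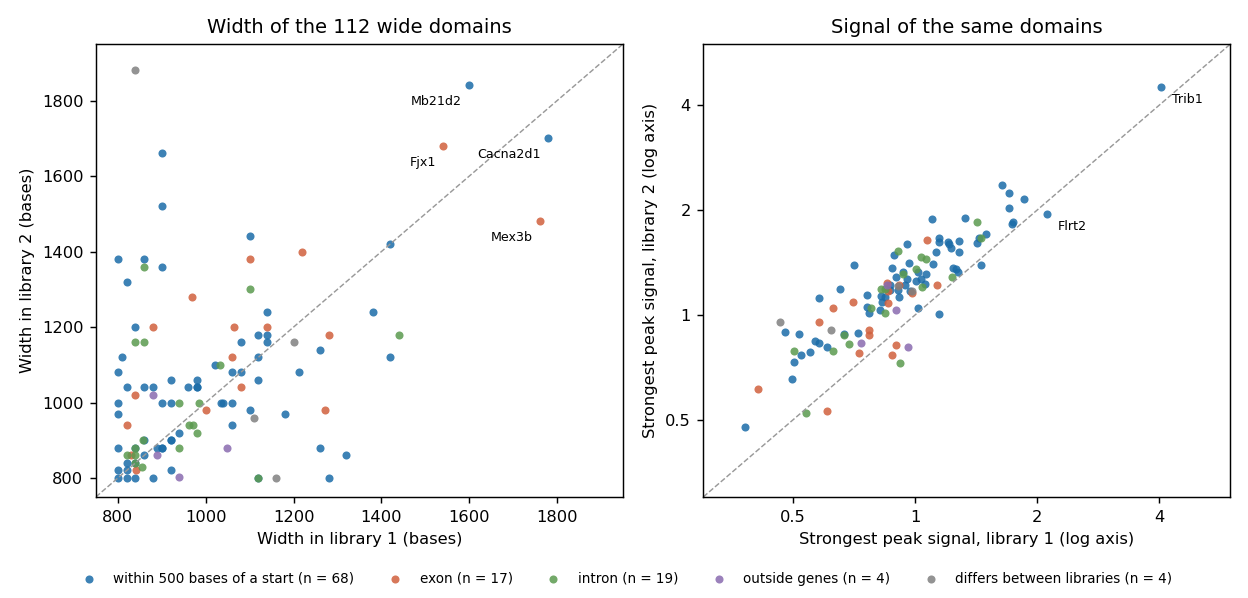
Each point is 1 of the 112 wide domains. The left panel plots width in bases and the right panel the strongest peak signal on log axes, library 1 across and library 2 up, coloured by where the midpoint lies, and the dashed line marks equal values. Widths scatter on both sides of the line, while 103 of 112 domains lie above it in signal, and Trib1 stands alone at 4.04 in library 1 and 4.53 in library 2.

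The domains sat at gene starts and inside genes. By the position of the midpoint, 61.9% of the domains of library 1 (exact binomial 95% interval 52.3% to 70.9%) and 61.6% of those of library 2 (51.9% to 70.6%) lay within 500 bases of an annotated transcript start. The other shared intervals lay there in 22.7% of cases in library 1 and 22.5% in library 2. Of the 112 loci, 68 lay at a start in both libraries, 17 in an exon farther away, 19 in an intron, 4 outside genes, and 4 differed between libraries. Midpoints outside genes made up 3.54% of the domains in library 1 and 4.46% in library 2, against 32.3% and 32.5% of the other shared intervals. A start lay within 2 kb of the middle of 99 loci, and 96 loci lay inside a protein-coding gene. The shares of other intervals within 2 kb, beyond 5 kb or inside protein-coding genes are not given, so these counts are a description. More than 5 kb from any start lay 9 loci. Among these were a domain in an intron of Bcl2, an inhibitor of apoptosis, 25248 bases from the nearest start, and a domain in an intron of Prkag2, the gene of a regulatory subunit of AMP-activated protein kinase, 41330 bases away. The farthest lay 54690 bases from the nearest start, that of Gm49676.

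At protein-coding starts the domain reached to both sides and, more often than not, farther into the gene. In 56 loci a protein-coding start lay inside the domain of both libraries. Where several lay inside, the one nearest the middle of the locus was taken, a choice that favours reach to both sides. At these 56 loci the domain ran a median of 434 bases upstream and 535 bases downstream of that start in library 1. In library 2 it ran 452 upstream and 609 downstream. It ran farther downstream than upstream at 34 of the 56 loci in library 1 and at 35 of 56 in library 2. Where the domain held exactly 1 protein-coding start this was so at 15 of 20 in library 1 and 13 of 20 in library 2. The other shared intervals with exactly 1 such start leaned the other way. They reached 149 bases upstream and 82 downstream in library 1 and 154 upstream and 90 downstream in library 2, and 31.8% and 33.3% of them extended farther into the gene.

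**Figure D2:**
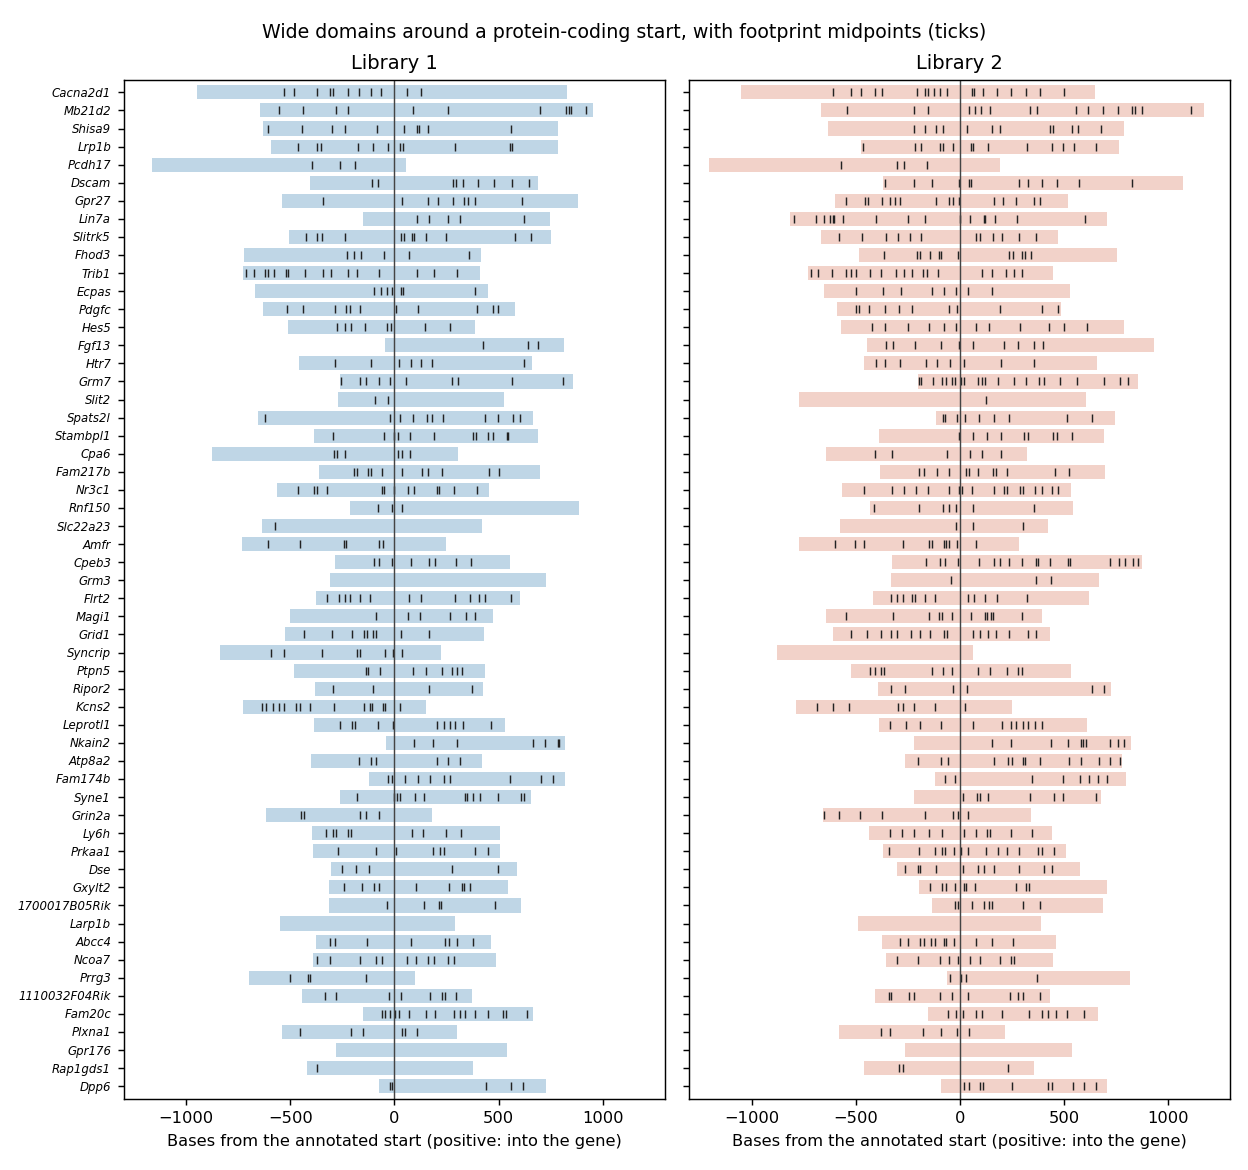
Bars show the extent of the 56 wide domains with a protein-coding start inside in both libraries, aligned at the start (0) in bases, with the direction of the gene to the right, the widest at the top, and library 1 beside library 2. Black ticks are midpoints of footprints. Most bars extend well past the start on both sides, and the bars at Larp1b and Gpr176 carry no tick in either library.

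The domain lay mostly inside the gene at Fam20c, which encodes a secretory pathway kinase. The domain at chr5:138754361-138755180 ran 153 bases upstream and 666 downstream in both libraries. At Dpp6, an auxiliary subunit of A-type potassium channels, it ran 72 upstream and 727 downstream in library 1 and 92 and 707 in library 2. The opposite was seen at Kcns2, a modulatory potassium channel subunit, with 728 upstream and 151 downstream in library 1 and 788 and 251 in library 2. Trib1 also leaned upstream, with 729 and 410 bases in library 1 and 729 and 450 in library 2. At Pcdh17 the start inside was an internal one and the domain ended close to it, with 1166 bases upstream and 53 downstream in library 1 and 1206 and 193 in library 2.

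Wide did not mean strong. The signal of a peak is the deposited column 7 value, whose normalization is not stated, and the strongest peak stands for the domain. Its median was 0.905 in library 1 and 1.19 in library 2 for the wide domains (mean 1.05 ± 0.204, SD, n = 2). For the other shared intervals it was 0.789 in library 1 and 0.845 in library 2. Promoter intervals are the closer yardstick, and there the order was reversed. Wide domains at promoters had medians of 0.970 in library 1 and 1.29 in library 2. The other shared promoter intervals had 1.57 in library 1 and 1.86 in library 2. Placed among these other promoter intervals, the median wide domain stood at percentile 34.8 in library 1 and 38.4 in library 2. In library 1, 62 of 70 wide promoter domains lay below the middle of that ranking, and in library 2 61 of 69, and none passed percentile 90 in either library. Conversely, the 1000 strongest promoter intervals had a median width of 260 bases in each library, and none of them reached 800 bases.

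Signal and width at promoters were not related in 1 direction. Promoter intervals of 200 to under 400 bases had the highest medians, with 2.16 in library 1 and 2.47 in library 2. The median was 1.07 in library 1 and 1.25 in library 2 at 400 to under 600 bases, and 0.932 and 1.10 at 600 to under 800 bases. Below 200 bases it was 0.674 in library 1 and 0.962 in library 2. The medians of the wide domains given above lay near those of the classes from 400 to under 800 bases.

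**Figure D3:**
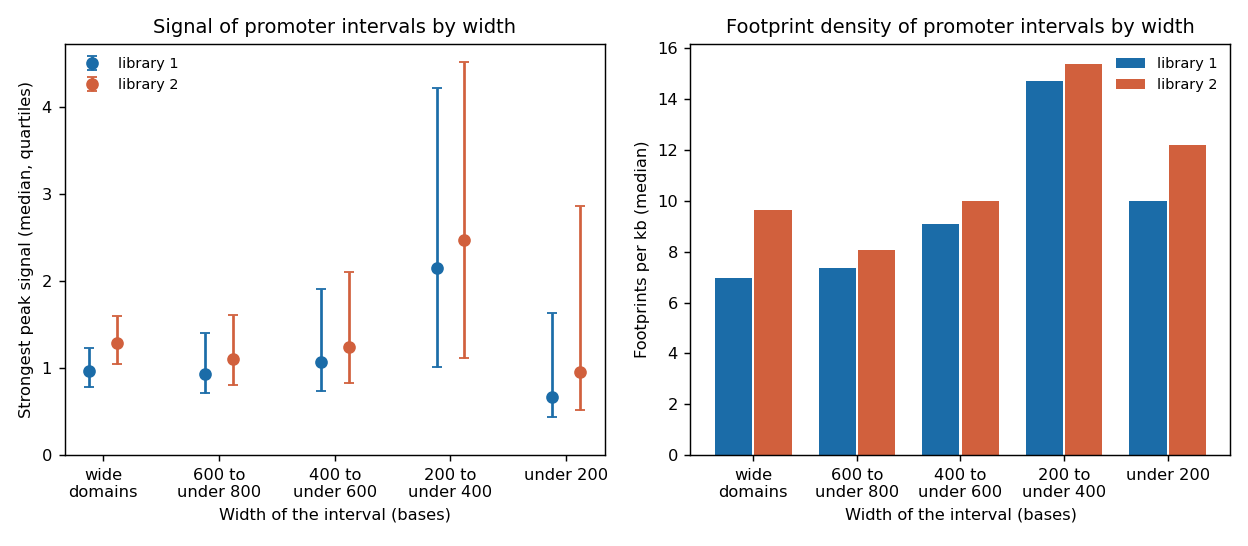
Promoter intervals by width class, wide domains at the left, library 1 in blue and library 2 in orange. The left panel shows the median strongest peak signal with its quartiles and the right panel the median number of footprints per kb, and both are highest in the class of 200 to under 400 bases.

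Trib1, a pseudokinase that brings substrates to the COP1 ubiquitin ligase, had by far the strongest wide domain. Its signal was 4.04 in library 1 and 4.53 in library 2, over widths of 1140 and 1180 bases. It was the only locus above 2 in both libraries. Next came Flrt2, an adhesion protein and ligand of Unc5 receptors, with a signal of 2.12 in library 1 and 1.95 in library 2, and the noncoding gene Lncppara with 1.85 in library 1 and 2.16 in library 2. Fam20c had 1.63 in library 1 and 2.36 in library 2, and Ncoa7, a coactivator of nuclear receptors, 1.71 and 2.24. Nr3c1, the glucocorticoid receptor, had 1.70 in library 1 and 2.02 in library 2, and Ptpn5, the striatal-enriched phosphatase of neurons, 1.74 and 1.85. At the other end, 30 loci stayed below 1 in both libraries. Cpa6, a carboxypeptidase gene, had the weakest values, 0.381 in library 1 and 0.475 in library 2.

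The signal of the domains was higher in library 2 at 103 of 112 loci. The median log2 ratio of library 1 over library 2 was -0.39 (SD over loci 0.26), against -0.14 for other promoter intervals paired 1 to 1 and -0.09 for all other such pairs. The number of wide merged intervals moved the same way, with 267 in library 1 and 682 in library 2, as did the share of the domains' bases covered by the shorter, stricter peak list, 76.8% in library 1 and 90.6% in library 2. Their part in the signal ratio was not tested. The ranking of the domains by signal was largely shared, with a Spearman rho of 0.85 over the 112 loci. It was lower than in the other intervals paired 1 to 1, with 0.92 for all of them and 0.98 at promoters. These values describe regions within the same pair of libraries. By the per-base tables the domains passed the looser threshold over nearly their whole length: the lowest share of bases with a false discovery rate under 0.05 in any domain was 97.7% in library 1 and 98.3% in library 2. Under the stricter rate of 0.001 the pooled share was 78.9% in library 1 and 91.2% in library 2 for wide domains, and 67.2% and 69.6% for the other shared intervals. At promoters it was 83.6% in library 1 and 94.7% in library 2 for wide domains, and 80.6% and 85.9% for the other promoter intervals. The domain at Tbr1 had the lowest share under 0.001, 0% of its bases in library 1 and 9.08% in library 2.

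Footprints were spread thinly over the domains. A domain held a median of 6 footprints in library 1 and 9 in library 2, or 6.25 and 8.33 per kb (mean 7.29 ± 1.47, SD, n = 2). The other shared intervals had 10 per kb in library 1 and 10.7 in library 2, and the other promoter intervals 12.5 and 14.3. Wide domains at promoters had 6.96 per kb in library 1 and 9.64 in library 2, and promoter intervals of 600 to under 800 bases, whose median signal was slightly lower, had 7.35 in library 1 and 8.06 in library 2. Wide domains away from promoters had fewer, 3.57 per kb in library 1 and 6.86 in library 2. Around protein-coding starts the density was highest close to the start. Over the last 100 bases before it there were 10.1 footprints per kb of domain in library 1 and 14.8 in library 2. Between 400 and 500 bases into the gene there were 5.41 in library 1 and 6.97 in library 2. The fall was not even, with 5.3 and 8.64 between 700 and 800 bases into the gene. Between 600 and 700 bases upstream there were 6.73 in library 1 and 9.40 in library 2.

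Fewer footprints recurred between libraries in wide domains than in other shared intervals. Of the footprints in wide domains, 40.1% of 738 in library 1 and 31.5% of 955 in library 2 overlapped a footprint of the other library. Over all other shared intervals the share was 58.1% in library 1 and 50.7% in library 2. At promoters alone, wide domains had 43.7% in library 1 and 34.5% in library 2. In other promoter intervals the share was 67.2% in library 1 and 59.6% in library 2, and in those of 600 to under 800 bases, whose median signal was lower than that of wide promoter domains, 47.0% and 37.4%.

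By the mean of both libraries Fam20c had the densest footprints, 16 in library 1 and 12 in library 2, or 19.5 and 14.6 per kb, while in library 2 alone Grm7 led. Trib1 had 16 in library 1 and 19 in library 2. Grm7, a presynaptic metabotropic glutamate receptor, had 10 in library 1 and 22 in library 2, or 8.93 and 20.8 per kb. The domain at Nr3c1 had 13 footprints in library 1 and 18 in library 2. In 8 loci no footprint was listed in either library. These were Rgs20, a regulator of G protein signalling, Gpr176, Larp1b, an RNA-binding protein, the noncoding gene 4930570G19Rik, Ppm1k, a mitochondrial phosphatase, Ephb1, a receptor for ephrins, Tob1, an antiproliferative protein, and Id4, an inhibitor of basic helix-loop-helix factors. Their signals ran low to middling, from 0.504 at Rgs20 to 1.04 at Tob1 in library 1 and from 0.728 at Ephb1 to 1.2 at Tob1 in library 2. The libraries could also disagree outright. Mex3b, an RNA-binding protein, had 15 footprints in library 1 and 0 in library 2, and Syncrip, an RNA-binding protein of messenger RNA transport, had 8 in library 1 and 0 in library 2, although both domains were present and wide in each library.

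The domains were CpG rich. Median G and C content was 65.3% in library 1 and 65.1% in library 2, and the median CpG observed over expected, which is near 1 where CpG has not been lost, was 0.744 in library 1 and 0.756 in library 2. The other shared intervals had 0.322 in library 1 and 0.320 in library 2. Other promoter intervals had 0.746 and 0.748, so that in the median ratio the wide domains were close to promoters in general. A ratio above 0.6 was found in 82.9% of wide promoter domains in library 1 and 79.7% in library 2. The other promoter intervals had it in 66.8% and 67.1% of cases, and all other shared intervals in 22.8% and 22.3%. These sets were not matched for width, and other promoter intervals under 200 bases had it in only 49.2% in library 1 and 47.3% in library 2. Of the 112 loci, 83 had a ratio above 0.6 and all of these also had more than 55% G and C. They included 56 of the 68 loci at starts and 27 of the 44 others, but 1 of the 9 loci over 5 kb from a start. The highest ratio was 1.08 in an exon of Trim71, a developmental RNA-binding protein, 1119 bases from the start, and Gpr27 had the most G and C, 77.4%. The lowest ratio was 0.122, at Cpa6. Near-copies elsewhere in the genome were rare. A single locus, in an intron of Mid1 and nearest to the start of Gm15726, had copies at 90% identity or more over at least 50% of its length.

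**Figure D4:**
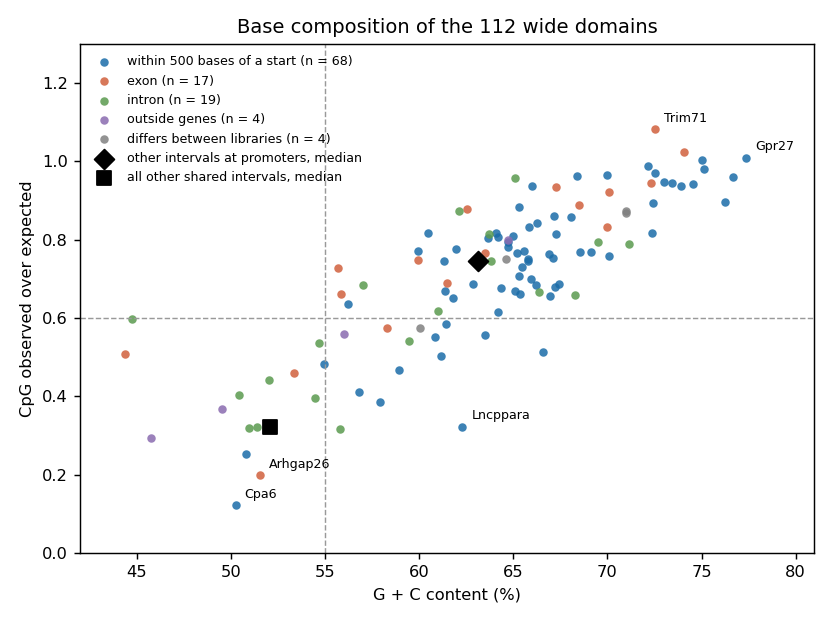
Each point is 1 of the 112 wide domains, with G and C content in percent across and CpG observed over expected up, coloured by where the midpoint lies, and black symbols give the medians of other intervals in library 1. Dashed lines mark 55% and 0.6, and 83 domains lie above both.

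Short sequences of known factors were counted on both strands in 300-base windows at the midpoint of each domain's strongest peak. Wide and other intervals were thus searched over equal lengths, but they were not covered equally. Other promoter intervals had median widths of 226 bases in library 1 and 240 in library 2, which is less than the window. A wide domain, at 800 bases or more, was searched only in part, and matches outside the window were not counted. Whether this changed the shares below was not tested. The SP and KLF box GGGCGG stood in 49.6% of the windows in library 1 and 52.7% in library 2, where the other shared intervals had 22% and 21.9%. At promoters alone it stood in 42 of 70 wide domains in library 1 and 39 of 69 in library 2 (56.5%), where 57.0% and 57.1% of other promoter intervals held it, and 75% and 74.7% of those with a CpG ratio above 0.6. The ETS sequence CCGGAAG stood in 5.71% of wide promoter domains in library 1 and 5.80% in library 2, against 16.4% and 16.6% of CpG-rich other promoter intervals. The CCAAT sequence of NFY stood in 18.6% and 10.1% of wide promoter domains in library 1 and library 2, against 30.4% and 30.7% of CpG-rich other promoter intervals. The AP-1 sequence TGANTCA was found in 2 windows in library 1 and 4 in library 2, or 1.77% and 3.57%, against 15.1% and 14.9% of all other shared intervals. At promoters the gap was small, with 1 window of a wide domain in each library (1.43% in library 1 and 1.45% in library 2), where CpG-rich other promoter intervals had 2.89% and 2.83%. The TATA box TATAAA was found in no window of a wide domain in either library, and CpG-rich other promoter intervals held it in 2.98% of windows in library 1 and 2.87% in library 2, which is a few windows in a set of this size. These are matches of letters in small sets of windows, and no test was made on them. Among the sequences printed above, GGGCGG or its complement stands in those of Grm7 and Fam20c.

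The genes at the domains were long. A protein-coding gene was counted where a start of it lay inside a wide domain in each library, which held for 61 of 21938 genes, or 0.278% of all. Their median span was 109 kb, and 33 of the 61 (54.1%) spanned more than 100 kb. Among the other 11446 protein-coding genes with a start in some interval of both libraries the median span was 26.7 kb and 16.2% passed 100 kb. The median number of annotated starts per gene was 5 in each of these sets. Among the longest were Lrp1b, a receptor of the low-density lipoprotein receptor family, Nkain2, a protein that interacts with the sodium pump, Grm7 and Dpp6. Short genes occurred too, such as Hes5, a target of Notch signalling, and Gpr27, an orphan receptor.

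The roles below were assigned to the loci after they had been seen, so that the number of loci in each is a description. Receptors, channels and their partners made up 17 loci, of which 15 lay at a start in both libraries. The widest of them was Cacna2d1, an alpha-2-delta subunit of voltage-gated calcium channels, at chr5:15933641-15935520, with 1780 bases in library 1 and 1700 in library 2 and a signal of 1.05 and 1.23. Shisa9, an auxiliary protein of AMPA receptors, had a domain of exactly 1420 bases in both libraries, at chr16:11983481-11984900. Lrp1b had 1380 bases in library 1 and 1240 in library 2, and Gpr27 1420 and 1120. Grm7 had 1120 in library 1 and 1060 in library 2, and Grm3, another metabotropic glutamate receptor, 1040 and 1000. Htr7, a serotonin receptor, had 1120 in each library. Grin2a, the GluN2A subunit of NMDA receptors, met the limit in library 1 with 800 bases and had 1000 in library 2. The signal of these 17 loci had a median of 0.912 in library 1 and 1.23 in library 2, close to that of all wide domains.

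Fgf14 and Fgf13, which encode intracellular fibroblast growth factor homologous factors that bind voltage-gated sodium channels, both had a wide domain, in different places. That of Fgf14 lay in an intron 1376 bases from the nearest start, was 1440 bases wide in library 1 and 1180 in library 2, and held 16 and 18 footprints. Its CpG ratio was 0.394. That of Fgf13 lay over a start, with 860 bases in library 1 and 1380 in library 2, and a ratio of 0.745.

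Cell adhesion and axon guidance accounted for 13 loci, 8 of them at a start. Delta protocadherins, homophilic adhesion molecules of neurons, supplied 4 of these loci, with 2 at Pcdh17. The Pcdh17 domain at chr14:84447301-84448700 was 1220 bases wide in library 1 and 1400 in library 2, and a second one stood at chr14:84444661-84446820, nearer the gene's outermost start. Pcdh7 had 900 bases in library 1 and 1660 in library 2, and Pcdh10 had 1280 and 1180 in an exon 1694 bases from its nearest start. Dscam, an adhesion molecule of neurite self-avoidance, had 1100 bases in library 1 and 1440 in library 2. Slitrk5, a synaptic organiser, had 1260 in library 1 and 1140 in library 2. Slit2, a repellent ligand of Robo receptors, had 800 in library 1 and 1380 in library 2, with a low signal of 0.504 and 0.734. Flrt2 combined 980 bases in library 1 and 1040 in library 2 with the second highest mean signal.

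Transcription accounted for 16 loci, of which 6 lay at a start in both libraries and the others in exons and introns. Tbr1, a factor of excitatory cortical neurons, had a domain in an exon 5565 bases from the nearest start, with 1065 bases in library 1 and 1200 in library 2, a signal of 0.578 and 0.956 and a CpG ratio of 0.934, and few or none of its bases passed the stricter false discovery rate. Sox11, a factor of newborn neurons, had 820 bases in library 1 and 940 in library 2 in its exon, with a signal of 1.07 and 1.64. Id4 had 1000 and 980 bases, again in an exon and with no footprint. Hes5 had 900 bases in library 1 and 1360 in library 2 around its start, and Irf2, an interferon regulatory factor, 860 and 1360 in an intron. Kctd1 had 1100 in library 1 and 1300 in library 2, and Zbtb10, a zinc finger gene, 968 and 1280. Maml3, a coactivator of Notch signalling, had 940 in library 1 and 880 in library 2 with 12 and 14 footprints.

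Signalling and cell survival accounted for 13 loci, 5 of them at a start. Besides Trib1 these included Pde3b, a phosphodiesterase of cyclic nucleotides, with 1140 bases in library 1 and 1200 in library 2, and Spry2, an inhibitor of growth factor signalling, with 1272 and 980 in an exon. Prkaa1, the catalytic alpha-1 subunit of AMP-activated protein kinase, had 900 bases in library 1 and 880 in library 2 at its start, with a signal of 1.33 and 1.90, so that a catalytic and a regulatory subunit of the same kinase each had a wide domain. RNA binding and protein turnover accounted for 10 loci, with Mex3b the widest, at 1760 bases in library 1 and 1480 in library 2. Another 30 loci lay at other protein-coding genes. Mb21d2 had 1600 bases in library 1 and 1840 in library 2, and Fjx1, the mouse homologue of the fly polarity gene four-jointed, 1540 and 1680 within an exon. Tmem178b showed the largest gap, with 840 bases in library 1 and 1880 in library 2. The remaining 13 loci were named by noncoding genes or genes with no role assigned.

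Within gene families 1 or 2 members had a wide domain at a start and the others did not. The 9 families were picked because they contained such a gene, so the count of each is a description. A start inside a wide domain in each library was found for 2 of 10 delta protocadherins, 2 of 8 metabotropic glutamate receptors, 1 of 6 Slitrk genes, 1 of 7 NMDA receptor subunits, 1 of 4 alpha-2-delta subunits, 1 of 4 homologous factors and 1 of 3 genes each among Flrt, Slit and Trib. Cacna2d1 had 1780 bases in library 1 and 1700 in library 2, where Cacna2d2 had 280 in each library and Cacna2d4 200. Trib2 had 340 bases in each library with a signal of 4.21 in library 1 and 4.53 in library 2, which was as strong as Trib1 over a far narrower interval. Grin2b had 340 bases in library 1 and 360 in library 2, and Grin1 260 and 250. Grm2 and Grm6 had no interval at a start in either library. Some members were wide in library 2 alone, as Slit3 with 240 bases in library 1 and 920 in library 2, and Fgf12 with 460 and 1000.

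**Figure D5:**
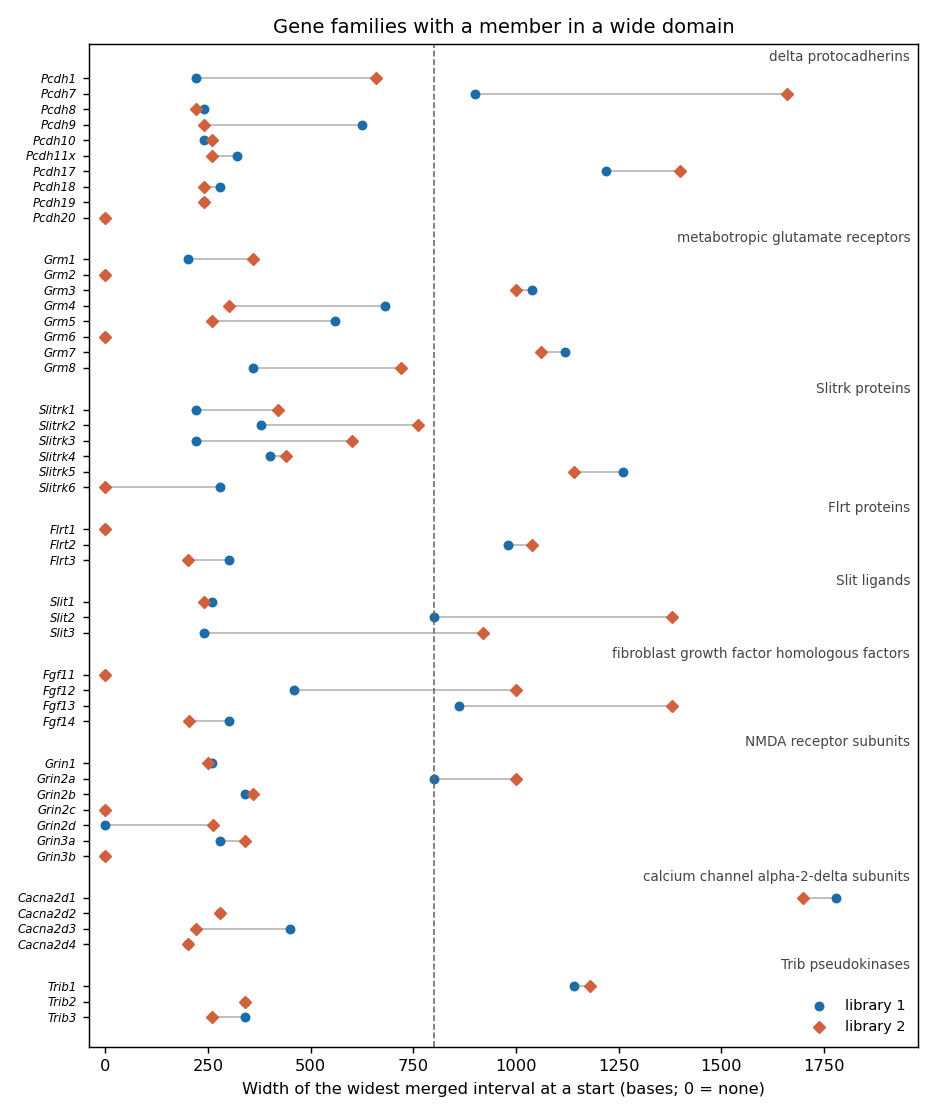
For each gene of 9 families the widest merged interval at an annotated start is shown in bases, library 1 as blue circles and library 2 as orange diamonds, and 0 where no interval covered a start. The dashed line marks 800 bases. At Cacna2d1 both libraries reach 1700 bases or more, while the 3 other alpha-2-delta genes stay at or below 449.

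None of the 300 genes in 20 lists, which covered cell types, immediate early genes, the clock, stress, ribosomal proteins and homeobox genes, had a start in a wide domain in both libraries. Across all protein-coding genes the share was 0.278%, so a count of 0 in lists of this size is near the background, and nothing is read from it. A wide domain lay in the gene or within 10 kb for 2 of them, Tbr1 and Spry2, against 116 of 21938 protein-coding genes (0.529%), which is near the background as well. The width of the widest interval at a start was also taken over all genes of a list, with 0 where no interval covered a start. Its median was 234 bases in library 1 and 250 in library 2 for immediate early genes, whose products are induced by neuronal activity. In the same order it was 300 and 310 for clock genes, and 230 and 240 for ribosomal protein genes.

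Wide domains rarely stood alone. Another merged interval lay within 2 kb of the edge in 87.6% of them in library 1 and 92.9% in library 2, against 48.5% and 50.1% of the other shared intervals and 71.2% and 72.1% of the other promoter intervals. Promoter intervals of 600 to under 800 bases had 84.0% in library 1 and 84.4% in library 2.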

How the data were processed

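Left cerebral cortex was profiled by DNase-seq in 2 libraries. The deposited readme files say that the peak lists, the footprint list and the per-base table of a library were derived from its own mm10 alignments, without pooling. No aligner, caller, version or threshold is stated, and how CAST alleles were handled is likewise not stated. Peak signal is column 7 of the narrowPeak lists deposited by the authors, with no stated normalization. The deposited per-base tables give q-values (false discovery rates) below 0.05. In the footprint lists of the authors the q-value is 0.01 throughout, taken as a threshold. Read depth is unknown, and exact binomial intervals cover counting error only.

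Peaks on chromosomes 1 to 19, X and Y were merged where they overlapped or touched, and intervals were paired across libraries by an overlap of at least 1 base. Other shared intervals are merged intervals that overlap one of the other library and are not members, including those of 800 bases or more in 1 library alone. Starts, exons and gene spans came from GENCODE M21. Promoter means a midpoint within 500 bases of an annotated start, and the other classes were taken in the order exon, intron, intergenic. Any gene had a wide domain at its start where any of its starts lay in a member of each library. Footprints were counted by midpoint. Sequences, G and C content and CpG ratios were read from NCBI's GRCm38.p6 (mm10), and copies were sought with blastn 2.17.0. Loci were named by the protein-coding gene with a start inside, otherwise by the nearest start. By rule, the text names the 12 widest, the 12 strongest, the 8 with the most and the 8 with the fewest footprints per kb, the 12 widest away from starts, the 3 on either side of the width limit and list members, or draws from them; other genes named were chosen after their values were seen. The members, gene lists, families, roles and 12 motifs were chosen with earlier results of these data known. Merging, pairing and footprint counting were tested on simulated data. Alternatives were other width limits, gaps of up to 100 bases, an overlap of 50% of each, the shorter list, each library alone, other promoter windows, recurrent footprints and the outermost start of a gene. Versions were Python 3.11.15, pandas 2.3.3, numpy 2.4.6, scipy 1.17.1, matplotlib 3.10.9 and pysam 0.24.0.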

Additional observations from a re-analysis of the deposited data

How the results depend on the processing

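The number of wide domains depended on the width limit, with 483 loci at 600 bases and 34 at 1000 against 112. It was 404 when gaps of up to 100 bases were merged and 50 in the shorter peak list. The share of protein-coding genes with a start in a wide domain moved with it, to 1.03% at 600 bases, 0.100% at 1000, 1.03% with gaps merged, 0.169% in the shorter list and 0.146% with the outermost start of each gene alone, against 0.278%. The share of domains at promoters, 61.8% as a mean of both libraries, was 58.0% at 600 bases, 62.4% at 1000, 62.1% with gaps merged, 64.4% with an overlap of 50% of each, 77.0% in the shorter list, 46.2% and 88.0% with windows of 250 and 2000 bases, and 61.3% where the domain had to overlap a start. The median CpG ratio, 0.750, was 0.716 at 600 bases, 0.723 with gaps merged and 0.801 in the shorter list. Median footprints per kb, 7.29, were 8.94 in the shorter list and 2.18 when only footprints found in both libraries were counted. The median strongest signal, 1.05, ranged from 0.878 in library 1 alone to 1.19 in the shorter list. Every move was smaller than its SD of 0.204, but that SD includes the offset between the libraries and is a loose yardstick. In wide intervals of each library alone, the count ranged from 267 to 682, the promoter share from 52.5% to 62.2%, the gene share from 0.661% to 1.5%, the signal from 0.878 to 0.956, footprints per kb from 6 to 6.82 and the CpG ratio from 0.688 to 0.734. The cause of these shifts was not tested, beyond fewer or more intervals passing each limit. No paired analysis was possible because there is 1 group.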

Other observations

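Intervals of at least 800 bases in 1 library alone were described in the same way. Their midpoints lay at a start in 62.3% of 154 in library 1 and 50.7% of 570 in library 2. Their median CpG ratio was 0.709 in library 1 and 0.667 in library 2, their median strongest signal was 0.827 and 0.900, and they held 5.16 and 6.33 footprints per kb. All but 3 of those in library 1 and 55 in library 2 overlapped a narrower interval of the other library.

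The 112 loci were spread over 20 chromosomes, with 10 each on chromosomes 3 and 5 and 9 on chromosome 6. In 2 loci the domain held starts of 2 protein-coding genes, and 48 held more than 1 annotated start position. The same counts are not given for other intervals, which are mostly shorter, so nothing is read from them.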
